A study of Mus musculus with 29 samples.

Results

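The 4 RNA-seq libraries described here are those labelled Ctrl on regular diet (RD, Ctrl_RD), made from atria of male mice and chosen by that label alone out of 29 libraries in the series. The other 25 libraries hold Ctrl mice on a high-fat diet (HFD) and mice of genotype NaV1.5 on RD, on HFD, on HFD with vehicle or on HFD with nicotinamide riboside, and they enter no value below. The labels give the genotype of the 4 libraries as Ctrl with no further allele, place all 4 in batch 1, and date the start of the diets of the series to 5 weeks of age. The labels do not state strain, age at collection or hour of collection. Titles number 3 of the 4 libraries, and the one without a number is taken as replicate 1. No label says that the 4 libraries come from separate mice, so the SDs below measure the spread between libraries, part of which may be technical. Values of the 4 libraries are always given in the order of replicates 1 to 4. No groups were compared and no test was made.

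The atria are the thin-walled receiving chambers of the heart. Their muscle cells contract with atrial isoforms of the myosin light chains, store natriuretic peptides in granules and release them when the wall is stretched, and conduct the impulse that starts in the sinoatrial node. Fibroblasts, endothelial cells, macrophages, pericytes, nerve endings and the epicardial cell layer make up the rest of the tissue, and all of them give RNA to a library of atrial tissue.

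The marker genes of atrial muscle and of sex matched the labels. Nppa, Myl7, Sln and Myl4, genes of atrial muscle cells, were among the 11 nuclear genes with the highest mean levels. Ventricular markers were not uniformly absent. Irx4, a transcription factor of ventricular muscle cells, had 3, 0, 0 and 0 counts, while Myl3, Myh7 and Myl2 averaged 191, 69.8 and 25.6 TPM. The Y-linked genes Eif2s3y, Ddx3y, Kdm5d and Uty averaged 22.5, 6.28, 1.54 and 1.13 TPM, and Xist averaged 0.0191 TPM. TPM, transcripts per 1000000, is the count of a gene divided by its length in merged exon bases and scaled to the same total in every library. The libraries held 30365131, 16040262, 18446154 and 25704533 counted read pairs. A count of 3, the limit that a count of 0 allows, corresponds to between 0.208 and 0.387 TPM for a gene of 1 kb in these libraries, a limit that covers counting error only.

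Of 55292 annotated genes, 12901 had 1 TPM or more in every library, and 11305 of these are protein coding. Another 2640 reached it in some libraries only, and 27426 had no count in any. A few genes made up much of the RNA. A mean of 100 TPM was reached by 831 genes, 1000 TPM by 75 and 10000 TPM by 9. These 9 were 7 mitochondrially encoded genes, Nppa and Myl7. Mitochondrially encoded genes held 37.8, 38.5, 35.2 and 38.8% of the TPM total and 20.1, 20.7, 18.7 and 21.9% of the counts, lowest in replicate 3 on both scales. Of the TPM of nuclear genes, the 10 highest genes held a mean of 21.8% ± 0.523, and between 167 and 190 genes held 50%. The 4 libraries shared 8 of their 10, 80 of their 100 and 882 of their 1000 highest nuclear genes.

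Replicate 4 stood apart from the others by gene length, and this touches many of the values below. Its median deviation from the mean of the other 3 libraries, on the scale of log2(TPM + 0.1) used for every SD of log2 TPM here, was 0.20 in 196 protein-coding genes under 1 kb with a mean of 5 TPM or more. It was -0.19 in 2870 such genes of 5 kb or more. Replicate 1 ran the other way, with -0.15 in the shortest and 0.07 in the longest class, and replicates 2 and 3 changed less with length. Across protein-coding genes at 5 TPM or more, the deviations also followed GC content, the share of G and C bases in the longest transcript. Spearman's rho with GC content was 0.14, -0.09, 0.39 and -0.33 in replicates 1 to 4. With length it was 0.29, 0.11, 0.05 and -0.30, so replicate 3 followed GC content more than length. Over all protein-coding genes at 5 TPM or more the median deviation was -0.13 in replicate 4 and 0.13 in replicate 3. Among all 14051 genes at a mean of 1 TPM or more, 2335, 3339, 1818 and 6559 were lowest in replicates 1 to 4, and 3223, 2325, 6095 and 2408 were highest in them. Counts of members lowest or highest in a library are to be read against these. The labels state neither RNA quality nor fragment size, and their part in these trends was not tested.

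**Figure D1:**
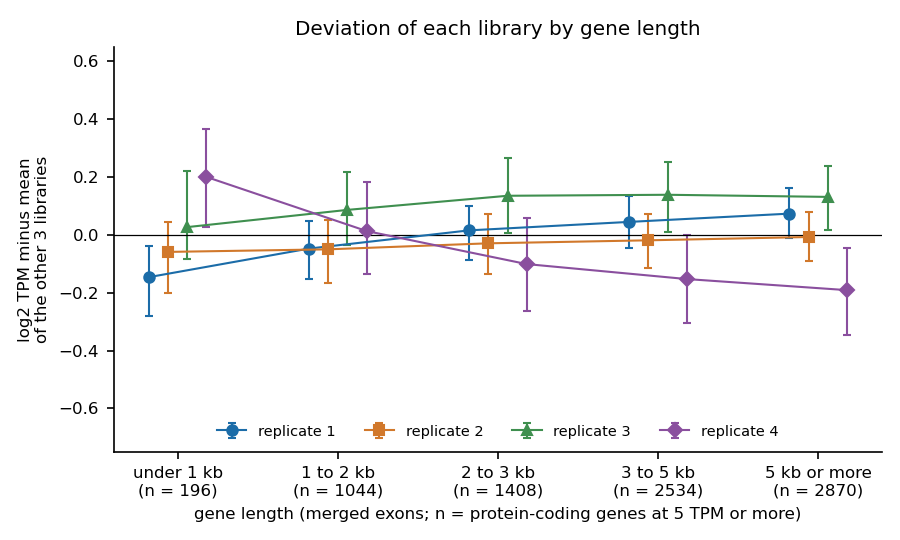
Median difference in log2 TPM between each Ctrl_RD library and the mean of the other 3, for protein-coding genes at 5 TPM or more in 5 classes of length; error bars span the middle 50% of genes. Replicate 4 falls with length to -0.19 at 5 kb or more, against 0.20 under 1 kb, and replicate 1 is at 0.07 and -0.15 in the same classes.

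Mitochondrial genes. The mitochondrial genome encodes 13 subunits of the respiratory chain, 2 ribosomal RNAs and 22 transfer RNAs, all copied as long precursors that are then cut. Its protein genes fell into a high and a low set. mt-Cytb, a subunit of complex III, had 80548, 83803, 75736 and 89532 TPM and was the highest gene in the libraries' mean. mt-Co1, the catalytic subunit of complex IV, had 76096, 74953, 74463 and 69306 TPM. The complex I subunits mt-Nd1, mt-Nd6, mt-Nd2, mt-Nd4 and mt-Nd5 followed, with means between 17362 TPM for mt-Nd5 and 57745 TPM for mt-Nd1. mt-Nd6 lies on the opposite strand from the other protein genes, and since strand was not used in counting, its 53499.5, 58759, 56623 and 54614 TPM may include pairs from the other strand, whose part was not tested. In the low set, mt-Co2, another subunit of complex IV, had only 4.86, 4.72, 5.56 and 4.39 TPM, from 48, 25, 33 and 39 counts. mt-Co3 averaged 3.41 ± 1.15 TPM and mt-Atp6, a subunit of the ATP synthase, 3.16 ± 0.910 TPM (SD, n = 4 libraries, as in all values with ± below). mt-Nd4l and mt-Atp8 averaged 0.669 and 1.17 TPM, and mt-Nd3 146 TPM.

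The low set coincided with sequences that the nuclear genome also holds. A stretch of chromosome 1 (build GRCm38) carries annotated copies of mitochondrial genes, and per the file headers read pairs that map to several places were not counted. Gm28661, the copy of mt-Co2 at chr1:24614885-24615565 on the minus strand, matched it at all 681 aligned bases in the GENCODE M21 transcripts. The first 60 bases of mt-Co2 and Gm28661 are shown because a pair that lies within identical stretches has no single place in the genome. The lines for mt-Co1 and its copy Gm29216 (chr1:24615706-24616197, minus strand) start at base 1054 of mt-Co1, counted from 1 at its 5′ end, and capitals mark the bases that differ.
mt-Co2: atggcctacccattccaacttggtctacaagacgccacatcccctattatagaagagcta
Gm28661: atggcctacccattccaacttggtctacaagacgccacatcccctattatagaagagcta
mt-Co1: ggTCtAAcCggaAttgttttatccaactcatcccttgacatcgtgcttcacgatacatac
Gm29216: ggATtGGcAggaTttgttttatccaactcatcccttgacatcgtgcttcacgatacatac
Gm29216 differed from mt-Co1 at 6 of 492 bases, T1056A, C1057T, A1059G, A1060G, C1062A and A1066T, all at its start. The copies of mt-Atp6 (Gm10925, 678 bases) and mt-Co3 (Gm28437, 783 bases) had no mismatch, and that of mt-Nd3 (Gm28438, 345 bases) had 1, T3C.

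Of the 50-base words of mt-Co2, 100% also occur in another annotated gene, and the shares were 99.9% for mt-Co3, 99.5% for mt-Atp6, 98.8% for mt-Nd4l and 98.0% for mt-Nd3. They were 51.1% for mt-Co1 and 62.2% for mt-Nd4, whose other bases could still be counted, and 0% for mt-Cytb, mt-Nd1 and mt-Nd6. mt-Atp8 shared none with an annotated gene, but it lies between mt-Co2 and mt-Atp6, whose copies lie side by side on chromosome 1. The copies of mt-Co2, mt-Atp6, mt-Co3 and mt-Nd3 had more counts than the genes they match. Gm28661 had 13981, 8528, 9374 and 15508 counts, or 1421, 1616, 1586 and 1751 TPM, and stood at rank 37 of the nuclear genes. Gm10925 and Gm28437 averaged 1056 and 1103 TPM. Whether these pairs came from the nuclear copies or from mitochondrial RNA was not tested. Since pairs within shared sequence were not counted, mt-Co2, mt-Co3, mt-Atp6, mt-Nd3 and mt-Nd4l were undercounted. The mitochondrial share of TPM is uncertain in both directions, because nuclear genes also lost pairs to shared sequence.

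**Figure D2:**
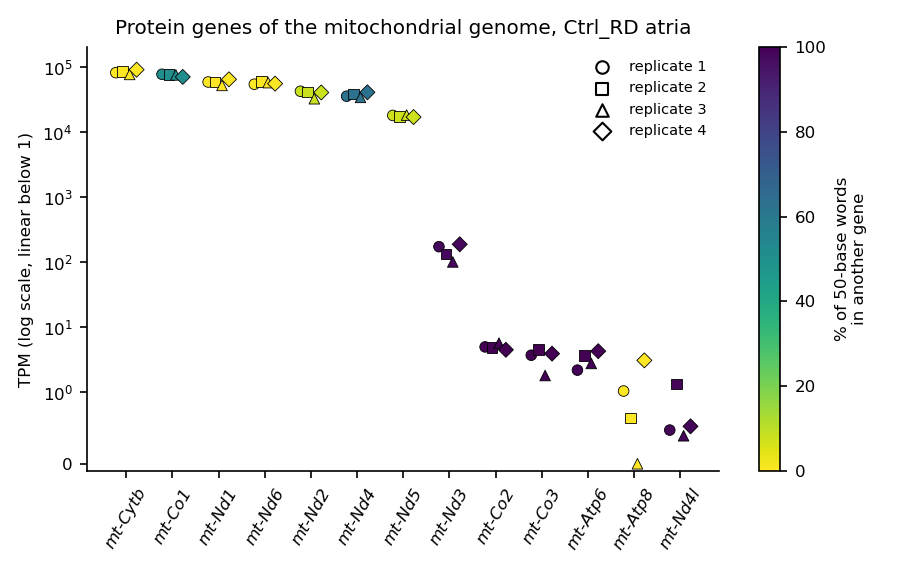
TPM of the 13 protein genes of the mitochondrial genome in the 4 Ctrl_RD libraries, on a log axis that is linear below 1; symbols mark libraries and colour the share of each gene's 50-base words that occur in another annotated gene. The 7 genes from mt-Cytb to mt-Nd5 lie above 10000 TPM, and the 5 darkest genes, mt-Nd3, mt-Co2, mt-Co3, mt-Atp6 and mt-Nd4l, lie far below them.

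The remaining mitochondrial RNAs were lower. Mature mitochondrial ribosomal RNAs carry short tails and are largely lost when poly-A RNA is selected; mt-Rnr2 had 2484, 2080.1, 1952 and 2572 TPM and mt-Rnr1 1989, 1840.4, 1805 and 2088 TPM. Among transfer RNA genes, mt-Te, which lies beside mt-Nd6, was highest with 3169.8, 2744, 1315 and 2029 TPM, and mt-Td and mt-Tk had no count. The transfer RNA genes are under 100 bases long, so their TPM depend most on how length is taken into account. Of the 31 mitochondrial genes with a mean of 1 TPM or more, 22 were lowest in replicate 3.

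Natriuretic peptides. Nppa, which encodes atrial natriuretic peptide, was the highest nuclear gene, with 52994, 49085, 56626 and 47688 TPM. Its level was highest in replicate 3 and lowest in replicate 4, a 1.19-fold range. The count understates it, since 61.5% of the exon bases of Nppa (chr4:148000722-148002079, plus strand) lie in exons of other genes, among them Gm13054, which is antisense to it, and pairs over both were left out. With the shared bases taken out of the lengths of all genes, Nppa averaged 120152 TPM and kept its rank, while Gm13054 had 108, 124, 98.0 and 82.7 TPM as counted. Nppb, which encodes B-type natriuretic peptide, had 1125, 1410.0, 1619 and 1253 TPM and held rank 48. Nppa was 38.7 ± 5.78 times Nppb as counted. Nppc, the C-type peptide of vessels and bone, averaged 0.204 TPM.

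Corin, the protease that cuts the Nppa precursor, had 118, 125, 119 and 114 TPM, within a 1.10-fold range. Among the receptors, the guanylyl cyclase Npr1, which binds the A- and B-type peptides, had 18.3, 18.4, 18.2 and 18.6 TPM, nearly the same in all 4 libraries (SD of log2 TPM 0.01). Its coefficient of variation, 0.926%, was below the 3.33% that counting error alone gives. The close values therefore do not show how steady Npr1 is. Npr2, the cyclase for the C-type peptide, had 40.7, 41.3, 43.6 and 28.2 TPM and was lowest in replicate 4. The clearance receptor Npr3 had 43.6, 47.6, 47.6 and 62.4 TPM and was highest there.

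The promoters of Nppa, Nppb and Myl7 are shown because they hold the word TGATAA, a form of the site that GATA factors bind. They were picked for that word, and the promoters of Actc1, Myh6, Mb, Tnni3, Gpx3 and Bmp10, searched in the same way, do not hold it. Other forms of the GATA site were not searched for. Sequences are from RefSeq (GRCm38.p6) and run from 250 bases before to 50 bases after the annotated start. They are Nppa at chr4:148000472-148000771 (plus strand), Nppb at chr4:147985650-147985949 (plus strand) and Myl7 at chr11:5898733-5899032 (minus strand), each read 5′ to 3′ along its gene. Capitals mark TGATAA, in Nppa and Nppb also TATAAA and in Myl7 also a match to the CArG box, the site of serum response factor.
Nppa: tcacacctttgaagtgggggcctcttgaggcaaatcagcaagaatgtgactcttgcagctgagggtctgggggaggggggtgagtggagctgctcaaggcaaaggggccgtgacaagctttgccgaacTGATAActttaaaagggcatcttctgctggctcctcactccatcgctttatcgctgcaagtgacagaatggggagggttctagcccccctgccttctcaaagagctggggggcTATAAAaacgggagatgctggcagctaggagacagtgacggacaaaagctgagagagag
Nppb: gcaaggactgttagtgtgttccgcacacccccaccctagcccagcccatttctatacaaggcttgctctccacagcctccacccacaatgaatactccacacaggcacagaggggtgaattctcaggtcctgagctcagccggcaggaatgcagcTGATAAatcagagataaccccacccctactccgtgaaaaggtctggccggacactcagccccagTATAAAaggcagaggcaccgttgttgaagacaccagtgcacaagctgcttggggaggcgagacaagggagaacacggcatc
Myl7: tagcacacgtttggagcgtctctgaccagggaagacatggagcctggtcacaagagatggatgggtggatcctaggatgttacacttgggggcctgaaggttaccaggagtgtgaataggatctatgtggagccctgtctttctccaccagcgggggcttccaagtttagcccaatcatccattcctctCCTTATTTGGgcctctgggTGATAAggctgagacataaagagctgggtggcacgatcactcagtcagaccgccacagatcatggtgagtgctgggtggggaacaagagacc
TGATAA begins 122 bases before the start in Nppa, 95 before it in Nppb and 42 before it in Myl7.

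Searched on both strands, TGATAA occurred in 13.7% of 190 promoters of the 200 highest protein-coding nuclear genes, 155 of which the table holds. It occurred in 4.16% of 11967 promoters of protein-coding genes at a mean of 1 TPM or more and in 9.05% of all 32851 promoters. TATAAA occurred in 12.1% of the promoters of the 200 highest genes, in 7.26% of those of genes at 1 TPM or more and in 13.6% of all. The CArG box occurred in 1.58, 1.29 and 1.63% of the same sets and the MEF2 site in 3.16, 1.88 and 3.19%. These shares describe windows of 300 bases and were not tested, and a match is not a bound site. Of the factors that bind such sites, Gata4 had 84.9, 75.1, 79.2 and 63.7 TPM, Gata6 19.9, 19.8, 18.9 and 16.9 TPM and Gata5 4.61, 3.58, 4.04 and 5.94 TPM. Srf, the factor of the CArG box, averaged 56.5 ± 8.63 TPM, Mef2a 15.5 ± 0.857 TPM and Mef2c 7.24 ± 0.886 TPM.

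Thick filament. Myosin heavy chain is the motor of the sarcomere, and its light chains set its speed and stiffness. Myl7, the atrial regulatory light chain, held rank 2 of the nuclear genes, with 35057, 29381, 30428 and 35836 TPM. Its ventricular counterpart Myl2 had 87.6, 3.31, 6.92 and 4.73 TPM. Replicate 1 thus stood far above the other 3 for Myl2, and Myl7 still held 99.8, 99.99, 99.98 and 99.99% of the pair's TPM. Myl4, the atrial essential light chain, had 5591, 5316, 5201 and 5766 TPM, against 244, 289.6, 137 and 93.1 TPM for Myl3, the ventricular one, which was higher in replicates 1 and 2 than in 3 and 4. Myl4 held 95.8, 94.8, 97.4 and 98.4% of that pair. Of the other ventricular markers, Irx4 had its only counts in replicate 1, Hey2 had 0.950, 1.26, 0.728 and 0.519 TPM, Lbh 44.3, 46.8, 68.2 and 36.4 TPM and Myh7 80.5, 73.6, 73.3 and 51.7 TPM. The 6 ventricular markers summed to 458, 414, 286 and 186 TPM, with Myl3 the largest part in every library, and whether ventricular tissue entered a library was not tested. In bulk tissue, fewer cells of a type and less RNA per cell cannot be told apart.

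Myh6, the fast alpha heavy chain, had 6481, 5821, 6180.5 and 4367 TPM and was lowest in replicate 4. It held 98.8% ± 0.0390 of the TPM of Myh6 and Myh7, the slow beta chain, or 82.1 ± 2.68 times its level. Of the 50-base words of Myh6, 20.2% occur in other genes, and of those of Myh7 15.6%. Mhrt, an antisense transcript at the locus, averaged 354 TPM, and 39.9% of its exon bases lie in other genes. Mybphl, an atrial relative of myosin-binding protein C, averaged 2279.8 ± 292 TPM, and Mybpc3, the cardiac form, 724 ± 97.1 TPM. Titin (Ttn) averaged 36.2 ± 3.75 TPM over its very long transcript. Of the 13 thick-filament genes at a mean of 1 TPM or more, 9 were highest in replicate 1 and 9 lowest in replicate 4.

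Thin filament and Z-disc. Actc1, cardiac alpha-actin, had 8974, 10176, 9867 and 6736 TPM. Acta1, skeletal alpha-actin, averaged 0.687 TPM, so that Actc1 held 99.99% ± 0.00452 of the pair. Cardiac troponin I (Tnni3) had 5695, 5630.1, 5068 and 6234 TPM and 99.7% ± 0.0697 of the TPM of its family. Tnni1, the slow form of the fetal heart, averaged 5.25 TPM. Troponin T (Tnnt2) held 99.2% ± 0.213 of its family, with 2792 ± 167 TPM. Tnnc1, troponin C of heart and slow muscle, had 3338, 3364, 2475 and 3438 TPM, lowest in replicate 3, while Tnnc2, the fast form, had no count, though 74.0% of its exon bases lie in another gene.

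Tcap, the titin cap of the Z-disc, held rank 5 with 6196, 6181, 6748 and 5215 TPM. Tropomyosin Tpm1 averaged 2312 ± 149.6 TPM and Tpm2 179 ± 51.8 TPM. Ankrd1, a stretch-responsive protein of the Z-disc and nucleus, had 1199, 1221, 2014 and 1095 TPM, highest in replicate 3. Nexn, which binds actin at the Z-disc, had 158, 164, 156 and 155 TPM, within a 1.06-fold range (SD of log2 TPM 0.04). The long Z-disc genes Flnc (47.4, 52.2, 47.2 and 28.1 TPM) and Actn2 (871, 911, 893 and 583 TPM) were both lowest in replicate 4, as were 15 of 21 genes of this list.

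**Figure D3:**
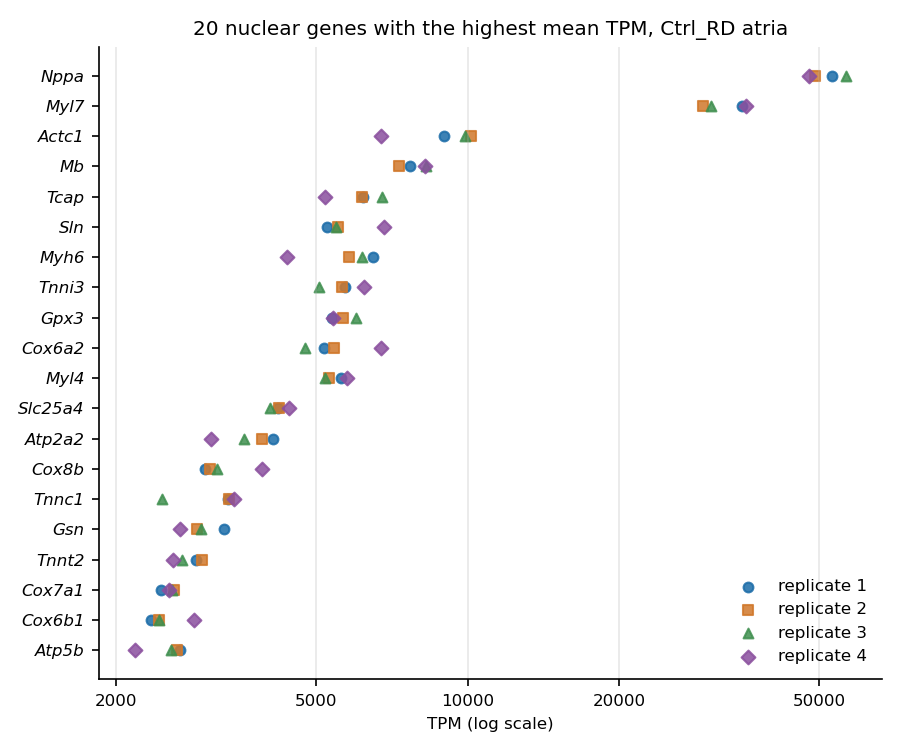
TPM on a log axis of the 20 nuclear genes with the highest mean, with 1 symbol for each of the 4 Ctrl_RD libraries. Nppa and Myl7 stand apart from the rest, and the range between libraries is 1.06-fold for Cox7a1 and 1.51-fold for Actc1, the smallest and largest of the 20.

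Other genes of atrial identity. Sln encodes sarcolipin, which inhibits the calcium pump in the atria, and is described below with calcium. Bmp10, a ligand made in the right atrium of the adult mouse, had 857, 793, 1028 and 973 TPM. The labels do not say how much of each atrium entered a library. Dkk3 averaged 742 ± 81.7 TPM and Stard10 921 ± 15.5 TPM. Tbx5, a transcription factor of atrial rhythm and septation, was the highest of the 18 cardiac transcription factors listed, with 119, 107, 119 and 85.7 TPM. Nkx2-5 had 60.2, 54.4, 72.6 and 63.3 TPM, and Nr2f2, which sets atrial against ventricular identity, 15.6, 15.1, 13.4 and 11.4 TPM. Nr2f1 averaged 5.68 ± 0.726 TPM. Of 17 factors at a mean of 1 TPM or more, 12 were lowest in replicate 4. Zfhx3 was the only one of the 18 with a mean under 1 TPM (0.706).

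Calcium cycling. Calcium enters through L-type channels, triggers its release from the sarcoplasmic reticulum through Ryr2 and is pumped back by the SERCA pump, which small peptides inhibit. Atp2a2, the cardiac pump, had 4106, 3895, 3599.5 and 3098 TPM and held 99.6% ± 0.109 of the SERCA transcripts. Sln had 5247, 5526, 5488 and 6817 TPM, highest in replicate 4. Pln, phospholamban, had 684, 764, 623 and 608 TPM as counted, and 64.7% of its exon bases lie in other genes, mostly the antisense gene Gm47644. Without the shared bases it averaged 1702 TPM and moved from rank 115 to rank 31. Sln exceeded Pln in every library, 8.73 ± 1.78 times as counted. The related peptide genes Mrln and Strit1 averaged 2.77 and 0.214 TPM.

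Casq2, the calcium buffer of the reticulum, averaged 603 ± 47.3 TPM and Hrc, another luminal calcium-binding protein, 622 ± 53.4 TPM. Ryr2 had 52.1, 50.6, 42.3 and 37.8 TPM, Jph2, which holds the reticulum to the surface membrane, 128, 139, 135 and 97.7 TPM, and the sodium-calcium exchanger Slc8a1 19.8, 20.6, 18.02 and 17.9 TPM. The L-type channel subunit Cacna1c had 9.01, 9.05, 7.90 and 5.92 TPM. Its relative Cacna1d, which pacemaker cells use, averaged 1.06 ± 0.217 TPM. Among T-type channels, Cacna1h had 40.3, 34.5, 28.9 and 12.8 TPM, lowest in replicate 4, and Cacna1g 4.50, 2.55, 2.92 and 2.99 TPM. Cacna1h had the largest spread of the calcium genes after Atp2a1 (SD of log2 TPM 0.73 and 1.01). S100a1, which tunes Ryr2 and the pump, averaged 1737 ± 106 TPM.

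Sodium and potassium channels. Sodium channels start the action potential, and potassium channels end it. Scn7a, a sodium-sensing member of the channel family, averaged 8.86 ± 0.791 TPM, Scn10a 4.58 ± 0.685 TPM and Scn4a 3.55 ± 1.10 TPM. The beta subunit Scn4b had 3.78, 6.29, 3.03 and 2.10 TPM, highest in replicate 2. Fgf12 and Fgf13, fibroblast growth factor homologues that bind sodium channels, averaged 61.2 ± 2.05 and 22.6 ± 4.10 TPM. Of 19 genes of the list, 11 averaged 1 TPM or more.

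Kcnj3 and Kcnj5 form the channel that acetylcholine opens to slow the atria. Kcnj3 had 282, 270.4, 276 and 231 TPM and Kcnj5 108, 97.2, 84.97 and 88.2 TPM, and together they exceeded Kcnj2, a subunit of the ventricular-type inward rectifier, at 13.9 ± 1.21 TPM. Kcnk3, the leak channel TASK-1, averaged 206 ± 27.6 TPM. Kcna5, the ultrarapid channel of human atria, averaged 5.82 ± 1.40 TPM. The pore gene Kcnj11 and the subunit Abcc8 of the ATP-sensitive channel averaged 94.1 ± 11.8 and 47.1 ± 9.47 TPM, while Abcc9, the ventricular and vascular subunit, averaged 9.01 ± 1.84 TPM. Kcnh2 and Kcnq1, channels of repolarisation, averaged 87.6 ± 10.4 and 33.2 ± 4.81 TPM. Of 18 potassium channel genes at 1 TPM or more, 11 were highest in replicate 1 and 12 lowest in replicate 4.

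Coupling and pacemaking. The connexins Gja5 and Gja1, which join atrial cells electrically, did not differ beyond the spread between libraries, with 61.6, 57.4, 48.6 and 48.2 TPM for Gja5 and 57.1, 52.3, 61.2 and 46.6 TPM for Gja1. Their mean ratio, Gja1 over Gja5, was 1.02 ± 0.164. Gja4, a connexin of arterial endothelium, had 15.5, 12.02, 26.2 and 22.3 TPM. Desmoplakin (Dsp) was the highest gene of the intercalated disc, with 75.1 ± 15.3 TPM. Among markers of the sinoatrial node, Smoc2, a matrix protein, was highest with 12.6, 7.59, 13.4 and 10.3 TPM. Hcn2, a pacemaker channel that working muscle also expresses, had 4.96, 4.08, 5.52 and 3.996 TPM and 63.7% ± 5.75 of the TPM of its family. Hcn4, the main channel of the node, had 2.05, 0.548, 1.85 and 1.47 TPM, Shox2 1.38, 0.156, 1.29 and 1.51 TPM and Tbx3 1.59, 1.5002, 2.07 and 1.27 TPM, and Isl1 was near 0. Replicate 2 was lowest for Hcn4 and Shox2, and for 6 of the 9 node markers at 1 TPM or more.

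Autonomic signalling. Chrm2, the muscarinic receptor of the vagus nerve, had 68.7, 66.2, 62.9 and 53.3 TPM. Adrb1, the main cardiac beta-adrenoceptor, had 12.3, 11.9, 12.1 and 8.57 TPM, lowest in replicate 4. Adcy6 and Adcy5, the cardiac adenylyl cyclases, averaged 68.3 ± 15.5 and 30.1 ± 3.72 TPM. Gnas, the stimulatory G protein, was counted at 0.710 ± 0.0702 TPM. Its locus carries several overlapping transcripts, and 21.6% of its exon bases lie in other genes, so this value is uncertain. Replicate 4 was lowest for 16 of 17 genes of the list.

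Respiratory chain and energy transfer. The nuclear genes of the respiratory chain summed to 60648, 62569.9, 60383 and 67508 TPM over 85 genes, of which 74 averaged 100 TPM or more. Complex IV uses muscle isoforms of some subunits. Cox6a2, the muscle form, had 5192, 5426, 4743 and 6745 TPM and 94.5% ± 0.914 of its pair with Cox6a1, and Cox8b 85.04% ± 0.463 of its pair with Cox8a. Cox7a1 held less, 70.1% ± 2.48 of its pair with Cox7a2, at 2456, 2609.8, 2581 and 2556 TPM. Slc25a4, the heart form of the ATP/ADP carrier, had 4195, 4218, 4048 and 4421 TPM and was 13.9 ± 0.245 times Slc25a5.

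Mb, myoglobin, had 7686, 7299.9, 8282 and 8214 TPM, although 31.9% of its exon bases lie in other genes. Of the creatine kinases, the mitochondrial Ckmt2 had 1328, 1543, 1354 and 1298 TPM and held 70.9% ± 2.07 of the family, above the cytosolic Ckm at 559, 547, 476 and 426 TPM in every library. The 13 genes of this list summed to 15740.5, 15577, 16154 and 16116 TPM, a 1.04-fold range. The median SD of log2 TPM of its members was 0.11, against 0.19 over all 14051 genes at a mean of 1 TPM or more. That background is not matched for level, and the median over all genes at 100 to 1000 TPM was 0.14.

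**Figure D4:**
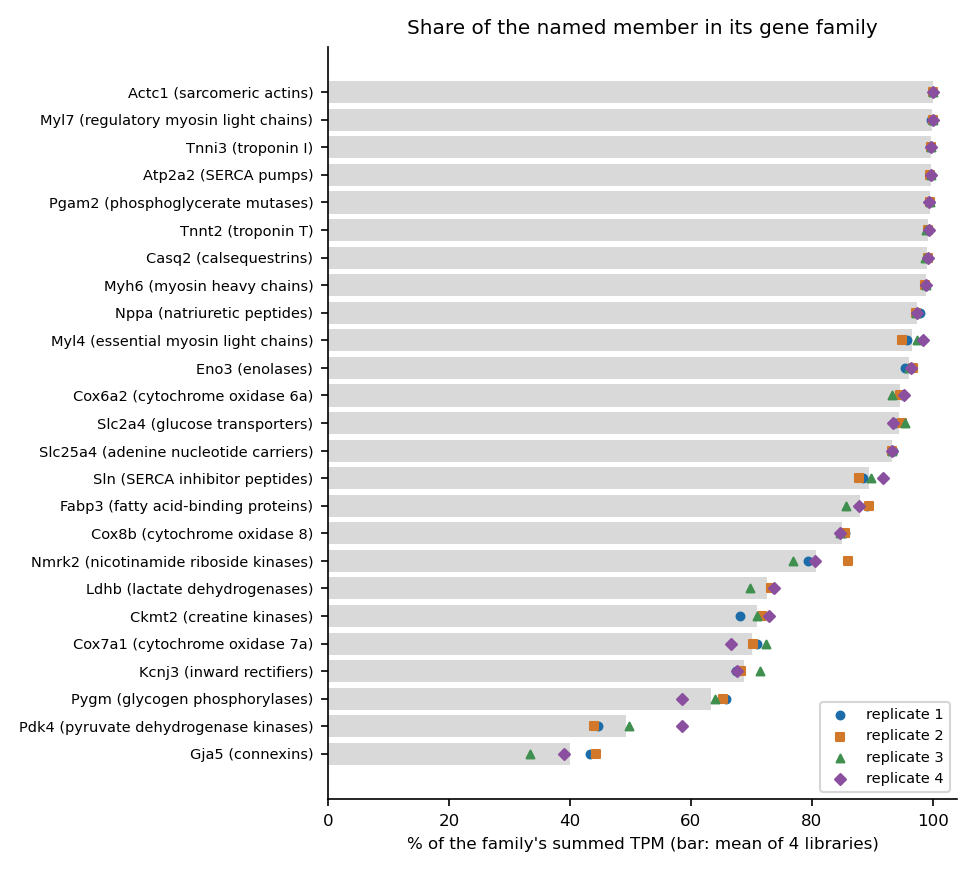
Share of the named gene in the summed TPM of its family, as the mean of the 4 Ctrl_RD libraries (bars) and per library (symbols). The contractile isoforms at the top hold nearly all of their families in each library, while Gja5, Pdk4 and Pygm at the bottom share theirs with other members and differ more between libraries.

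Fuel use. Atrial muscle burns mainly fatty acids, carried by Fabp3, taken into mitochondria by the carnitine shuttle and cut in beta-oxidation. Fabp3 had 1668, 1749.7, 1755 and 1972 TPM and 88.0% ± 1.70 of the TPM of its 3 family members. Cd36, the fatty acid transporter, had 325, 329, 316 and 336 TPM. The beta-oxidation enzymes Acaa2, Acadl and Acadm averaged 994 ± 52.6, 714 ± 91.7 and 203 ± 24.7 TPM. Acadl was lowest in replicate 4 with 578 TPM. Cpt1b, the muscle form of the shuttle's gate, was counted at 7.74, 6.85, 6.46 and 4.63 TPM, below Cpt1a at 24.1, 25.8, 25.1 and 21.2 TPM. This order is not reliable, since 81.4% of the exon bases of Cpt1b lie in another gene of the same strand, Gm44502. Without the shared bases Cpt1b averaged 30.9 TPM. The list of 27 genes summed to 6856, 7005, 6807 and 6682 TPM, and the median SD of log2 TPM of its members was 0.11.

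Glucose enters through Slc2a4 (GLUT4), at 231, 229, 208 and 163.3 TPM and 94.4% ± 0.915 of the 3 transporters listed. Hk1 and Hk2, the hexokinases, stood at 45.2 ± 6.97 and 37.3 ± 7.03 TPM. The muscle enzymes led the later steps: Eno3 held 96.1% ± 0.549 of the enolases and Pgam2 99.5% ± 0.0599 of its pair. Ldhb, which favours the use of lactate, was 2.66 ± 0.233 times Ldha, with 1006, 976, 924 and 994 TPM for Ldhb and 361, 358, 399 and 353 TPM for Ldha. Pdk4 and Pdk2, which switch off pyruvate oxidation, moved apart across the libraries. Pdk4 had 269.9, 244, 307 and 314 TPM and Pdk2 285, 265, 261 and 177 TPM, so that Pdk2 was the higher in replicates 1 and 2 and Pdk4 in replicates 3 and 4. Glycogen phosphorylase was divided between Pygm (623, 589, 592 and 405 TPM) and Pygb (323, 312, 331 and 285 TPM).

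Genes of fat synthesis were lower. The 17 genes of the list summed to 721, 676, 649 and 518 TPM. Fasn, fatty acid synthase, averaged 5.96 ± 1.20 TPM and Acaca 1.28 ± 0.151 TPM, while Acacb, the form that makes the inhibitor of the carnitine shuttle, had 38.8, 38.2, 39.0 and 24.4 TPM. Pnpla2, the triglyceride lipase, averaged 297 ± 40.5 TPM. Among the nuclear receptors of lipid sensing, Ppard averaged 8.25 ± 0.975 TPM, Pparg 3.69 ± 0.827 TPM and Ppara 0.825 ± 0.140 TPM, in this order in every library. Their targets Ucp2, Ucp3 and Angptl4 averaged 283 ± 57.3, 29.6 ± 2.38 and 14.97 ± 4.10 TPM. Heart muscle also burns ketones and amino acids. Oxct1, which starts ketone use, had 222, 237, 208 and 221 TPM, and Bdh1, the enzyme before it in that path, 3.12, 4.25, 2.61 and 3.52 TPM. The aminotransferases Got1 and Got2 averaged 442 ± 55.4 and 180.0 ± 36.1 TPM, and all 13 genes of this list averaged 1 TPM or more.

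NAD metabolism. NAD is made from nicotinamide by Nampt, from nicotinamide riboside by the kinases Nmrk1 and Nmrk2, and in the liver also from tryptophan. The series supplies nicotinamide riboside to other groups, and in these control atria the genes that use it were at low to medium levels. Nmrk2, the muscle kinase, had 14.5, 24.1, 12.1 and 14.2 TPM, highest in replicate 2, and Nmrk1 3.77, 3.95, 3.66 and 3.42 TPM. Nmrk2 held 79.4, 85.9, 76.8 and 80.6% of the pair. Nampt had 28.5, 30.97, 28.6 and 31.8 TPM and Naprt, which uses nicotinic acid, 15.6, 16.8, 14.3 and 14.8 TPM. Slc29a1, a nucleoside transporter, had 61.9, 60.9, 61.5 and 58.4 TPM, and Slc25a51, the mitochondrial NAD carrier, 24.4, 23.4, 26.1 and 22.7 TPM. Of the enzymes that complete NAD, Nmnat1 averaged 17.4 ± 0.823 TPM, Nmnat3 7.90 ± 0.610 TPM and Nmnat2 0.240 ± 0.0422 TPM. The genes of the tryptophan route, Tdo2, Ido1, Kmo, Kynu, Haao and Qprt, all averaged under 0.5 TPM.

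Nnt, which links NADH to NADPH in mitochondria and is disrupted in C57BL/6J mice, had 45.2, 44.7, 42.3 and 54.1 TPM. The 14 genes of NAD synthesis at 1 TPM or more had a median SD of log2 TPM of 0.10, and none differed 2-fold between libraries. The share was 1566 of 14051 of all genes (11.1%), and 3.33% of genes at 5 TPM or more. At such shares few or none of 14 genes would differ 2-fold, so the count says little about this list. Among NAD users, Sirt2 was the highest sirtuin, with 45.8, 41.9, 49.1 and 40.3 TPM, and the mitochondrial Sirt3 averaged 11.03 ± 1.60 TPM. Parp1, which uses NAD at broken DNA, averaged 20.2 ± 3.73 TPM, and the NAD hydrolase Cd38 had 7.39, 7.995, 11.3 and 8.38 TPM.

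Redox, chaperones, ribosomes and clock. Gpx3, the secreted glutathione peroxidase, ranked ninth of the nuclear genes, with 5382, 5652, 6010.0 and 5390.1 TPM. The peroxiredoxins Prdx5, Prdx2 and Prdx3 averaged 325 ± 5.84, 296 ± 10.998 and 289 ± 7.04 TPM. Cryab and Hspb7, small heat shock proteins of the sarcomere, averaged 2383 ± 256.3 and 1281 ± 275 TPM, and the heat-induced Hspa1a and Hspa1b 1.11 and 1.48 TPM. The genes of the cytosolic ribosome summed to 23776, 24384, 25094 and 30033 TPM, and 74 of 81 were highest in replicate 4. Protein-coding genes under 1 kb as a class were also higher in replicate 4, by a median of 0.20 in log2 TPM. The part of gene length in the count of 74 was not tested. In the clock, the output genes Dbp and Nr1d1 had 122, 107, 110.1 and 91.6 and 127, 78.5, 96.4 and 87.6 TPM, while Arntl, which is high at the opposite phase, had 0.782, 0.497, 0.138 and 0.879 TPM. Dbp and Nr1d1 were thus far above Arntl in all 4 libraries. Per1 and Per2 averaged 37.4 ± 8.42 and 10.3 ± 2.45 TPM, and 15 of 17 clock genes were lowest in replicate 4.

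Other cells of the atria. Fibroblast genes were well expressed: Dcn had 395, 401, 314 and 439 TPM, Dpt 326, 297, 314 and 382 TPM and Pdgfra 10.99, 9.89, 8.58 and 9.45 TPM. Gsn, gelsolin, was far higher, with 3285, 2893, 2951 and 2685 TPM, and is not limited to fibroblasts. Mgp, an inhibitor of calcification, was the highest matrix gene, at 1697, 1669.7, 1728 and 2386 TPM and highest in replicate 4. Most of the matrix list was highest in replicate 3, 26 of 33 genes, among them Sparc (402, 333, 654 and 357 TPM), Ccn2 (313, 439, 763 and 363 TPM), Col4a1 (69.1, 59.3, 117 and 48.0 TPM) and Col3a1 (117, 72.7, 151 and 95.3 TPM). Endothelial markers were present, Pecam1 with 85.9, 94.4, 114 and 138 TPM and Cdh5 with 59.0, 49.2, 77.2 and 45.6 TPM. The mesothelial genes of the epicardial surface, Upk3b and Msln, had 123, 139.8, 106 and 151 and 59.8, 73.0, 71.5 and 79.04 TPM, and Wt1 averaged 3.78 ± 0.289 TPM. Rgs5, a pericyte gene, averaged 87.0 ± 13.6 TPM and Myh11, of smooth muscle, 2.22 ± 0.364 TPM. Smooth muscle genes of the same list differed widely in level. Smtn averaged 105 TPM, and Acta2 48.6 TPM with shared bases taken out of all lengths. All 11 genes of the smooth muscle and pericyte list had 1 TPM or more in every library. Tagln, another smooth muscle gene, is understated at 3.99 ± 0.968 TPM, since 67.9% of its exon bases lie in other genes.

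Of 15 macrophage and monocyte genes at 1 TPM or more, 11 were lowest in replicate 1, 10 highest in replicate 3 and 4 highest in replicate 4. Lyz2 had 407, 452, 521 and 638 TPM, C1qa 198, 234, 316 and 274 TPM and C1qb 205, 198, 327 and 309 TPM. Csf1r, the receptor that macrophages need to survive, had 39.2, 40.03, 49.9 and 34.5 TPM and was lowest in replicate 4, and Cd68 had 32.4, 39.1, 40.9 and 32.9 TPM. The summed level of the 16 macrophage and monocyte markers was 1032, 1134, 1473 and 1491 TPM, and Ccr2, of recruited monocytes, averaged 1.44 ± 0.285 TPM. T cell markers such as Cd3e and Cd8a stayed under 1 TPM. Immunoglobulin genes were low in replicate 1. Igkc, the kappa constant region, had 29.7, 176, 255 and 205 TPM and Igha, the constant region of IgA, 2.62, 35.6, 49.3 and 36.5 TPM, both lowest in replicate 1. The V segment Igkv10-96 had 0.193, 9.71, 9.31 and 10.3 TPM, from only 1, 27, 29 and 48 counts. By contrast, Ighm, of IgM, had 15.2, 19.2, 17.5 and 11.1 TPM and was lowest in replicate 4.

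Red cell RNA showed the same low replicate. Hbb-bs, a beta-globin gene, had 807, 1632, 3267 and 1792 TPM, and Alas2, the haem synthesis enzyme of red cells, 8.96, 18.7, 35.9 and 13.9 TPM. All 5 red cell genes at 1 TPM or more were lowest in replicate 1 and highest in replicate 3, though 53.2% of the 50-base words of Hbb-bs occur in other genes. The granulocyte gene S100a9 had 4.24, 12.6, 11.3 and 14.9 TPM. All 3 granulocyte genes at 1 TPM or more were lowest in replicate 1. How much blood each tissue held was not measured.

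Marker lists of neighbouring tissues differed in how much of them was present. Of 8 lung markers 1 averaged 1 TPM or more (Ager, at 1.06 TPM), and Sftpc had no count. Of 6 thymocyte markers 1 did (Cd1d1, at 6.62 TPM), and Rag1, Rag2 and Dntt had no count. Of 12 skeletal muscle markers 8 averaged 1 TPM or more. Besides Ckm, which heart muscle shares, these included the fast troponin I Tnni2 with 17.8, 12.2, 10.2 and 10.5 TPM and the fast calcium pump Atp2a1 with 12.05, 12.7, 4.94 and 2.96 TPM, both lower in replicates 3 and 4 than in replicates 1 and 2. Pvalb, of the same list, had another order, with 15.4, 1.24, 2.21 and 13.9 TPM. Of these 8 genes, 3, 1, 2 and 2 were highest and 0, 3, 2 and 3 lowest in replicates 1 to 4. The fast myosin chains Myh1, Myh2 and Myh4, which define skeletal fibres, stayed under 0.2 TPM in every library. Of 6 hepatocyte markers 3 averaged 1 TPM or more, led by Cyp2e1 with 10.8, 7.65, 7.74 and 11.3 TPM, and Alb averaged 1.70 TPM. White adipocyte genes were present. Cfd, a secreted protease, had 27.8, 10.1, 20.8 and 39.96 TPM and Adipoq, which encodes adiponectin, 4.21, 2.43, 2.67 and 5.29 TPM. Both were lowest in replicate 2, as were 4 of 6 genes of the list. Ucp1 of brown fat had no count, while Cidea of the same list averaged 26.4 ± 3.803 TPM. Dbh, of noradrenergic cells, had 22.4, 12.8, 16.5 and 23.2 TPM, while Th averaged 0.176 TPM and Chat had no count. Cytl1, from the list of valve and cartilage, had 174, 206, 162.6 and 331 TPM, highest in replicate 4, and Col2a1, which defines cartilage, averaged 0.00811 TPM.

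**Figure D5:**
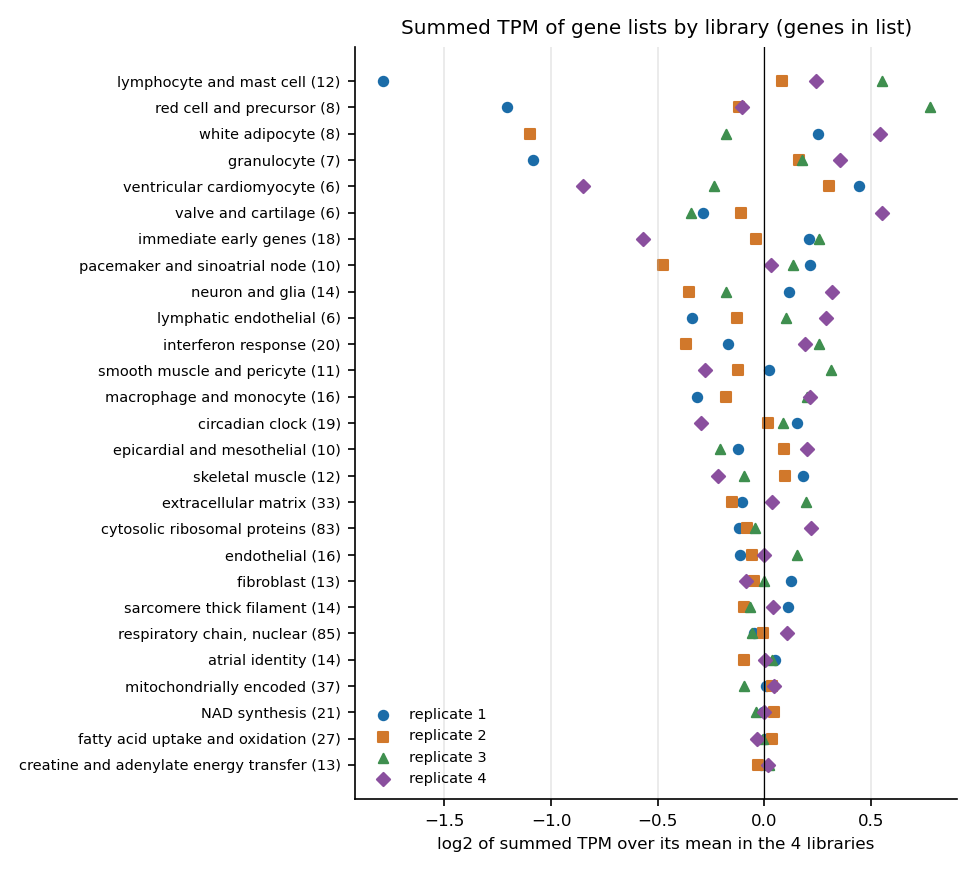
Log2 of the summed TPM of each gene list in each Ctrl_RD library over its mean in the 4 libraries, with lists ordered by range and the number of genes in brackets. The sums of the lymphocyte list, which is mostly Igkc, and of the red cell list lie lowest in replicate 1, that of white adipocyte genes lowest in replicate 2, and the lists of fatty acid oxidation, NAD synthesis and energy transfer lie close to 0 in all 4.

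Spread between the libraries. Gene lists differed in how steady their members were. The median SD of log2 TPM was 0.84 for the red cell list, 0.67 for the granulocyte list and 0.41 for the interferon list. It was 0.35 for matrix genes, 0.17 for calcium cycling, 0.12 for the respiratory chain and 0.10 for NAD synthesis, beside 0.19 for all genes at 1 TPM or more. Lists were not matched for level, and the median over all genes fell from 0.26 at 1 to 5 TPM to 0.14 at 1000 TPM or more. The members of a list share libraries, so a list is not a set of independent readings. Over the 8760 genes with a mean of 5 TPM or more, the median SD of log2(TPM + 0.1) was 0.16, and the median coefficient of variation of TPM was 10.8%. The highest and lowest library lay at least 2-fold apart for 292 (3.33%). Without replicate 4 this count was 163, and without replicate 3 it was 194. The common biological coefficient of variation from edgeR, an estimate of the spread beyond counting noise over 14524 genes, was 13.4%, and 11.2% without replicate 4. Pairs of libraries correlated over the 8760 genes with Pearson's r of 0.977 to 0.987 on the log2 scale, a description across genes, which are not independent. The 3 pairs with replicate 4 had the 3 lowest values. A 2-fold range was found in 2.12% of protein-coding genes at 5 TPM or more and in 16.8% of processed pseudogenes.

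Single genes with the largest spread were of several kinds. The 20 genes with the largest SD of log2 TPM were taken for their spread, which is therefore a description. Gm10263, Gm13394, Gm6969, Gm6166, Gm8034, Atp6v0c-ps2 and Rpl34-ps1 among them are annotated as processed pseudogenes, and Rps18-ps5 and Ldhb-ps are named as pseudogenes. Gm13394 had 4.50, 255, 5.53 and 4.85 TPM and Gm6969 10.7, 7.92, 6.74 and 154 TPM, and 94.7 and 69.3% of their 50-base words occur in other genes. Among protein-coding genes, Gdpd3, a phospholipase D of the endoplasmic reticulum, had 1.36, 1.95, 23.4 and 28.6 TPM, low in replicates 1 and 2 and high in 3 and 4. Pvalb, the calcium buffer parvalbumin, had 15.4, 1.24, 2.21 and 13.9 TPM, high in replicates 1 and 4. Penk, which encodes enkephalins, had 12.4, 11.5, 2.61 and 11.96 TPM and was low in replicate 3 only. Myl2, Igkc, Igha and Igkv10-96 belong to the same set.

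Genes that respond within minutes to handling or stimulation were low in replicate 4. Egr1 had 23.3, 12.4, 15.4 and 3.95 TPM, Fos 10.7, 7.52, 9.02 and 1.99 TPM and Nr4a1 22.6, 15.3, 14.4 and 5.46 TPM. Of 15 immediate early genes at 1 TPM or more, 13 were lowest there, against 6559 of 14051 of all genes. Interferon-induced genes had another order: Ifit3 had 21.4, 17.1, 32.5 and 34.7 TPM and Isg15 19.01, 14.3, 27.9 and 28.1 TPM, and 14 of 19 were lowest in replicate 2. Of 24 cell division genes 9 averaged 1 TPM or more, led by Pcna, the clamp of DNA polymerases, with 22.4, 20.7, 23.2 and 20.7 TPM, and Cenpa, the histone of centromeres, with 17.97, 14.6, 15.4 and 12.5 TPM. Markers of dividing cells were lower, with Mki67 at 0.378, 0.475, 1.18 and 0.596 TPM and Top2a at 0.684, 0.215, 1.10 and 0.512 TPM, both highest in replicate 3.

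At the other end, some genes hardly differed between libraries. Sppl2a, an intramembrane protease, had 14.9, 14.8, 14.9 and 14.96 TPM, Pef1 60.7, 60.8, 59.9 and 60.3 TPM, Copb2, a subunit of the Golgi coat, 59.6, 60.6, 59.5 and 59.8 TPM and Sdhd, a subunit of complex II, 658, 652, 665 and 658 TPM. The 10 genes with the smallest SD were Sppl2a, Hmox2, Pef1, Ppp3cc, Dapp1, Copb2, Sdhd, Nr0b2, Aasdhppt and Tars. They were chosen for their small spread among 8760 genes, so their steadiness describes these 4 libraries only.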

How the data were processed

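Poly-A RNA of atria was sequenced from TruSeq stranded libraries, per the labels' protocols. The authors deposited raw counts of read pairs per gene with a column of merged exon length. The tools credited in the submitters' processing notes are STAR 2.7.6a, featureCounts 2.0.1 and FastQC 0.11.7, with builds GRCm38 and mm10. Per the file headers, featureCounts ran on GENCODE M25 annotation plus 1 added record named flag, which had 0 counts here, with paired ends and genes joined by name. No option for strand, for multi-mapping pairs or for pairs over several genes was set, so strand was ignored and such pairs were left out. A gene that overlaps or repeats another is thus undercounted.

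TPM was computed from the deposited counts and lengths (Python 3.11.15, pandas 2.3.3, numpy 2.4.6). SDs of log2 values used a pseudocount of 0.1. The common coefficient of variation came from edgeR 4.0.16 (R 4.3.3), and size factors for an alternative from DESeq2 1.42.0. Exon overlaps came from the exon coordinates in the deposited files, and biotypes and 50-base words from GENCODE M21 on the same build, which matched 53292 of 55292 names. Totals ranged over 16040262 to 30365131 counts, and floors of 3 counts cover counting error only. With 1 group no test was made. The spread measures were tried on simulated counts with independent noise for each gene. Those counts held no trend with gene length or GC content, so the trial does not cover such trends.

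The members and lists were chosen with earlier results of these data known. The genes named were the 20 nuclear and 5 mitochondrial genes with the highest mean TPM, up to 6 members of each list by mean TPM, all members of lists of 8 or fewer, markers at or near 0, all members of isoform families, and the 20 genes with the largest and 10 with the smallest SD of log2 TPM at a mean of 5 TPM or more. Other list members in the text were chosen after their values were seen. Some genes are not reported here.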

Additional observations from a re-analysis of the deposited data

Results flagged for a closer look

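In 24 of 381 values (325 named genes, 49 list sums and 7 measures of a whole library) 1 library lay far from the other 3, by the gap to its nearest neighbour over the whole range. Chance flags about 1 in 20 groups by this measure, and genes with the largest and smallest SD were named for their spread. No list sum stood apart. The library apart was replicate 4 in 14 values, 7 of them high and 7 low.

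In replicate 4, Adcy6 was low with 45.1 TPM, where the others had 74.3 to 77.7 TPM. Acadl was low there with 578 TPM, where the others had 749.9 to 772 TPM. Acacb was at 24.4 TPM, Pygm at 405 TPM, Got2 at 126 TPM and Adrb1 at 8.57 TPM, where the lowest of the other libraries had 38.2, 589, 196 and 11.9 TPM. Ppp3cc, at 11.96 TPM, differed by little from the others at 12.11 to 12.13 TPM. High in replicate 4 were Mgp with 2386 TPM, Rplp1 with 2751 TPM and Nkg7, a gene of cytotoxic lymphocytes, with 4.80 TPM, where the highest of the others had 1728, 2119 and 2.54 TPM. The pseudogenes Gm6969, Gm10263, Rps18-ps5 and Atp6v0c-ps2 were high in it with 154, 49.2, 44.9 and 35.2 TPM, where no other library was above 10.7, 3.87, 3.83 and 3.47 TPM.

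In replicate 1, Myl2 was high with 87.6 TPM, where the others had 3.31 to 6.92 TPM. Igkv10-96 was low there with 0.193 TPM, from 1 count and so under the floor of 3 counts, where the lowest of the others had 9.31 TPM. Gbp2, an interferon-induced GTPase, was low in the same library with 28.6 TPM, where the lowest of the others had 33.8 TPM. In replicate 2, the pseudogenes Gm13394, Ldhb-ps and Rpl34-ps1 were high with 255 TPM, 88.2 TPM and 59.4 TPM, where no other library was above 5.53, 11.4 and 10.4 TPM. Eno3 was high there with 1129.9 TPM, where the others had 1025 to 1042 TPM. In replicate 3, Tnnc1 was low with 2475 TPM and Ddx3y with 5.65 TPM, where the lowest of the others had 3338 and 6.45 TPM, and Ldha was high with 399 TPM, where the highest of the others had 361 TPM.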

How the results depend on the processing

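No paired analysis was possible because the results come from a single group and no test. The number of genes at 1 TPM or more in every library was 12901, and 8039 at 5 TPM. The mitochondrial share, 37.6% of TPM, was 20.4% of counts and 33.9% with unshared length, an alternative chosen after seeing the data in which bases shared with another gene leave the length. The share of the 10 highest nuclear genes in nuclear TPM, 21.8%, was 13.6% of counts, 23.8% with effective length and 30.2% with unshared length. Effective length takes off an assumed fragment size, since the labels state none. The median SD of log2 TPM, 0.16, was 0.19 at a mean of 1 TPM or more and 0.30 with no filter, and ranged over 0.11 (without replicate 4) to 0.17 with a replicate left out. The 292 genes 2-fold or more apart became 442 with nuclear TPM, 1566 at 1 TPM or more, 146 at 10 TPM or more and 144 among protein-coding genes with few shared words, also chosen after seeing the data. Nuclear TPM raises each level, so its cut of 5 TPM lets in more genes, and the 442 do not show an effect of scaling alone. With a replicate left out they ranged from 163 (without replicate 4) to 221, and were 194 without replicate 3. The common coefficient of variation, 13.4%, ranged over 11.2% (without replicate 4) to 14.2%. Under TMM scaling and DESeq2 size factors, the means of all 325 named genes moved by less than their SD. Both alternatives were scaled back to the same mean total, and their ratios to the main mean lay between 0.974 and 1.06. Scaling of this kind could hardly move a mean by its SD, so the result says little about dependence on scaling. Leaving out a replicate cannot move a mean of 4 values by as much as their SD. It therefore could not show whether these means depend on a replicate. With effective length 139 of 325 means moved by their SD or more, and with unshared length 91 of 325. The median ratio to the main mean was 0.875 with effective length and 0.897 with unshared length. More than 1.5-fold shifts were found for 11 of 325 with effective length and 5 with unshared length. They were also found for all 319 nuclear genes with TPM over nuclear genes only, whose construction raises each by about the same factor (median 1.60). Depth limits genes of 1 kb below 0.208 to 0.387 TPM.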

Other observations

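Short genes in the Myh7 region had levels that their length makes uncertain. Mir208b, a microRNA gene of 77 bases, had 1654, 1570.5, 1687 and 1034 TPM in replicates 1 to 4, and Gm17428, of 93 bases, had 1345, 1399, 1326 and 929 TPM. Both were lowest in replicate 4. Neither is a reading of the mature microRNA, which carries no poly-A tail.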
